A study of Mus musculus with 20 samples.

Results

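The comparison of swim stress with control in serotonin transporter knockout mice rests on 10 of the 20 arrays of the study, 5 KO stress and 5 KO con, which were chosen by the sample labels alone. Each array holds amygdala RNA of 1 male mouse aged 7 months, left and right amygdala together. KO stress mice lacked a working serotonin transporter (5-HTT, encoded by Slc6a4) and were placed for 1 min in water of 22 °C, whereas KO con mice of the same genotype spent 1 min in the home cage. WT stress and WT con mice, 5 each, had both intact alleles and went through the same protocols, and all mice were on a C57BL/6 background (C57BL/6J in the study's methods) and born to heterozygous parents. Before the experiment all of them had been housed singly and had been through an elevated plus-maze test. The deletion is constitutive, so that it was present in all cells and throughout development, and the tissue was stabilised within minutes of the stressor. Values are log2 signals, on which a difference of 1 is a doubling, for all 28767 probe sets.

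Removal of serotonin from the synapse depends on 5-HTT, and mice without it are known for raised extracellular serotonin and for anxiety-like behaviour. The amygdala weighs threat and passes it on to hypothalamus and brainstem. Within minutes of a stressor, immediate early genes such as Fos are usually the first to be transcribed. The amygdala lies beside the temporal horn of the lateral ventricle, which holds choroid plexus, the epithelium that secretes cerebrospinal fluid, and a lining of ciliated ependyma, and it is covered by the meninges, fibroblast layers rich in collagen and small proteoglycans.

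The probe set of the targeted gene, Slc6a4, lay between 8.10 and 8.38 in KO stress arrays and between 8.11 and 8.20 in KO con arrays, with 4 of 5 KO stress arrays above all KO con arrays. The difference of 0.12 had an SE of 0.23 in the fit over all groups, which takes in the spread of WT con (limma p = 0.616, exact permutation p = 0.0635). In limma on the KO arrays alone the SE was 0.052 and the unadjusted limma p was 0.047. In WT stress arrays it lay between 6.30 and 6.55, and in WT con arrays between 5.82 and 7.82, so that every array labelled KO was above every array labelled WT. Arrays are called by their labels throughout. Where its probes lie relative to the deleted stretch was not looked up here, and its level was not taken as a check of the deletion. Medians of the 20 arrays lay between 6.59 and 6.82, pairs of KO arrays correlated at 0.982 to 0.995 across probe sets, and no pair was identical. Genes of neurons found in the amygdala were present, but uneven, and their levels were not taken as a check of the dissection. Prkcd, a marker of the lateral central nucleus, lay between 8.81 and 10.62 in KO stress arrays and between 7.62 and 10.53 in KO con arrays. Slc17a7, the vesicular glutamate transporter of pallial neurons, lay between 7.08 and 10.27 in KO stress arrays and between 6.92 and 11.04 in KO con arrays.

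After adjustment over all 28767 probe sets, limma found 0 probe sets at an adjusted p under 0.05, and the lowest adjusted p was 1. An unadjusted p under 0.05 was found for 326 probe sets, which is 1.13% of all. Of these, 238 had higher values in KO stress (0.827% of all) and 88 had lower values (0.306%). Where no probe set differs, a share of about 0.05 falls under that threshold, and 1.13% is below this share. The 326 also depended on the fit. It was 777 with limma on the KO arrays alone, 1276 with replicate numbers as a block and 200 without KO stress replicate 4. No effect was read from the 326 or from their split by direction. The criterion of the study, a fold difference over 1.5 with an unadjusted p under 0.05, was met by 40 probe sets, or 0.139% of those tested. With 39 of the 40 (0.136% of all), KO stress had the higher mean, and with 1 (0.00348%) the lower mean. Since none passed the adjusted threshold, the words higher and lower describe means in what follows, and every p of a single gene is unadjusted. Of the 40 probe sets, 38 carry 1 gene symbol and lie on 18 chromosomes, and 2 carry none. Single mice moved this count. Leaving out a KO stress mouse gave 69 (replicate 1), 11 (replicate 2), 82 (replicate 3), 14 (replicate 4) or 67 (replicate 5). Of the KO con mice, replicate 2 when left out gave 19 and replicate 4 gave 81, and replicate 4 of WT stress gave 64.

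**Figure D1:**
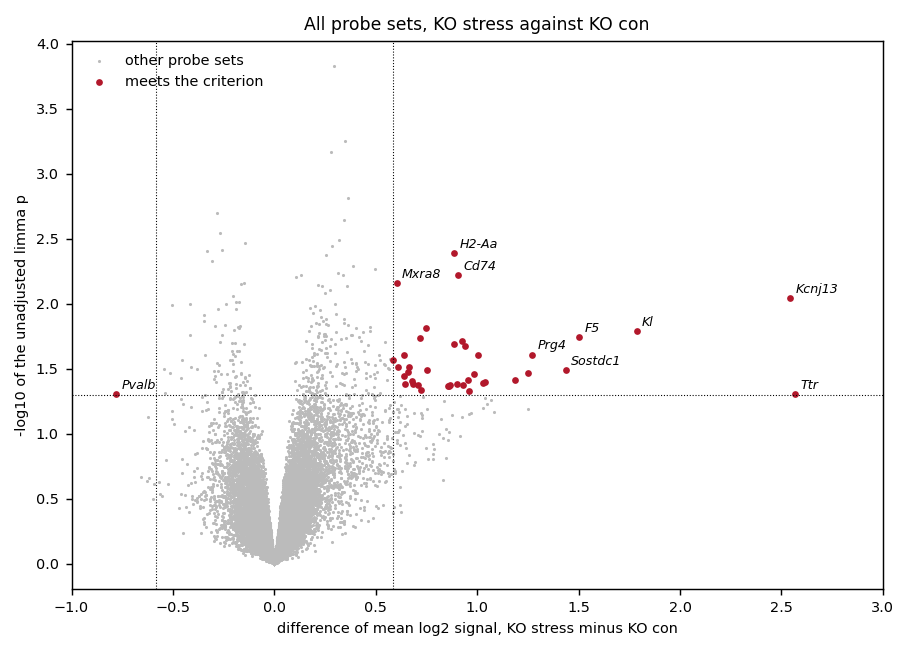
Difference of mean log2 signal (KO stress minus KO con, horizontal axis) against −log10 of the unadjusted limma p (vertical axis) for 28767 probe sets; dotted lines mark a fold of 1.5 and a p of 0.05. Of the 40 probe sets that met the criterion, 39 lie on the right and Pvalb alone on the left.

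The 39 probe sets with a higher KO stress mean were uneven among the stressed mice. KO stress replicate 2 was the highest of the 10 KO arrays for 34 of the 39, whereas it was the highest for 7.34% of all probe sets. KO stress replicate 4 exceeded every KO con array for 38 of the 39, replicate 2 for 35, replicates 1 and 5 for 24 each, and replicate 3 for 21. All 5 KO stress arrays exceeded all 5 KO con arrays for 4 of the 39, and for 0.195% of all probe sets. The SD of these probe sets had a median of 0.75 among KO stress arrays and 0.25 among KO con arrays, against 0.13 and 0.12 over all probe sets, and it was larger in KO stress for 35 of the 39. The 39 had been picked for a high KO stress mean, which favours KO stress arrays in such comparisons. The values over all probe sets are therefore no like baseline. The choroid plexus lists and the list for meninges and fibroblasts share no gene, although Igf2 and Lepr, below, were high in WT arrays that were high for either. By the symbols of the probe table, the 40 probe sets include 13 of the choroid plexus lists and 13 of the list for meninges and fibroblasts, and 8 that are in no list. One of these 8, probe set 10428619, has no symbol in that table and is Enpp2 in the study's own, so that it belongs with the choroid plexus genes although the counts leave it out. As the mean level over a list, the choroid plexus genes listed by the study lay between 6.82 and 8.93 in KO stress and between 6.42 and 6.82 in KO con, and the genes of meninges and fibroblasts between 7.08 and 8.60 in KO stress and between 6.73 and 7.30 in KO con. With the average of choroid plexus genes outside the study's lists as a covariate, 8 probe sets met the criterion, 5 of them shared with the 40. That average was itself 0.21 in KO stress and −0.19 in KO con. Since the covariate differed between the groups, this fit cannot separate it from the stress contrast, and nothing was read from the 8. The part of such cells in the results was not tested.

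Genes of the choroid plexus had the highest differences. Ttr, the thyroxine and retinol-binding carrier transthyretin that the plexus secretes, had log2 signals of 12.01, 13.04, 9.23, 12.10 and 11.65 in KO stress replicates 1 to 5, against 9.31, 6.54, 9.23, 9.53 and 10.59 in KO con replicates 1 to 5. Replicate 3 of KO stress was at the level of control arrays, and the other 4 stressed arrays were above all controls. The means were 11.61 ± 1.43 in KO stress and 9.04 ± 1.499 in KO con (SD, n = 5 each), a difference of 2.57 ± 1.22 (SE; limma p = 0.0497, exact permutation p = 0.0317).

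Kcnj13, the inward rectifier Kir7.1 of the apical membrane, was at 9.27, 10.79, 6.89, 9.39 and 8.14 in KO stress replicates 1 to 5, against 7.05, 5.61, 6.24, 6.09 and 6.78 in KO con replicates 1 to 5. The difference was 2.54 ± 0.87 (SE; limma p = 0.00907, exact permutation p = 0.0159), with replicate 3 inside the control range. Kl, the co-receptor klotho for fibroblast growth factor 23, was at 8.80, 10.17, 6.74, 9.02 and 7.99 in KO stress, against 6.67, 6.65, 6.69, 6.68 and 7.10 in KO con. The 5 control arrays of Kl were close together, and 4 stressed arrays were above them (difference 1.79 ± 0.67, SE; limma p = 0.0163, exact permutation p = 0.0159). F5, coagulation factor V, reached 7.18, 8.18, 5.18, 7.09 and 6.55 in KO stress, against 5.28, 5.13, 5.31, 5.51 and 5.43 in KO con. Again replicate 3 alone among the stressed arrays was not above the controls, and the difference was 1.503 ± 0.58 (SE; limma p = 0.0182, exact permutation p = 0.0397).

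**Figure D2:**
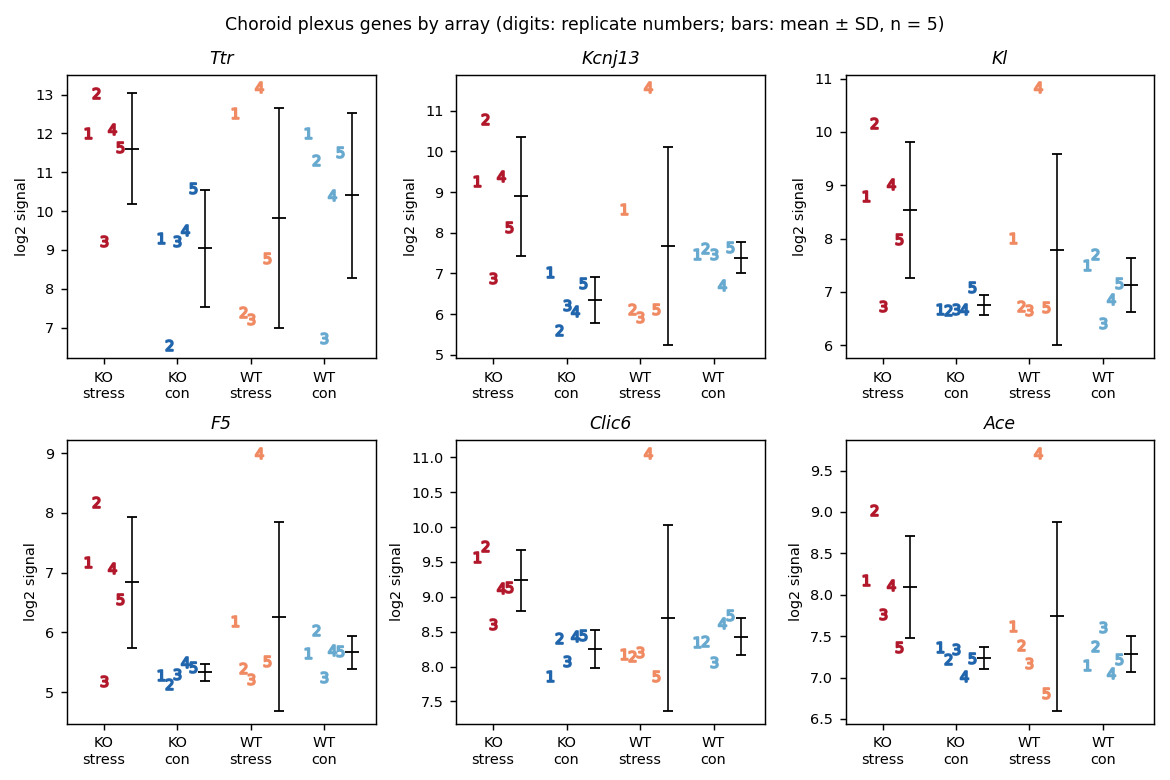
Log2 signal (vertical axis) of 6 choroid plexus genes in the 5 arrays of each group; digits are replicate numbers, and bars show the mean ± SD. For Ttr, Kcnj13, Kl and F5, KO stress replicate 3 lies in or near the range of KO con, and WT stress replicate 4 is the highest WT array; for Clic6 and Ace the KO groups do not overlap.

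With 4 of the 24 measured plexus genes listed by the study, and 1 of 27 not listed by it, every KO stress array exceeded every KO con array. The same held for 0.195% of all probe sets. Col8a1 and Cldn1, whose differences are given below, were among them, as were Clic6 and Ace. Clic6, an intracellular chloride channel protein, was at 9.58, 9.72, 8.61, 9.13 and 9.14 in KO stress, against 7.86, 8.42, 8.08, 8.44 and 8.45 in KO con. Every stressed array was above every control, by a difference of 0.99 ± 0.43 (SE; limma p = 0.0349, exact permutation p = 0.00794, the smallest that 5 arrays against 5 allow). Ace, angiotensin-converting enzyme, was at 8.18, 9.02, 7.77, 8.11 and 7.37 in KO stress, against 7.36, 7.23, 7.34, 7.02 and 7.24 in KO con. The lowest stressed array, replicate 5, was barely above the highest control (difference 0.86 ± 0.39, SE; limma p = 0.0434, exact permutation p = 0.00794).

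The remaining genes of the choroid plexus lists that met the criterion comprise transporters, channels and secreted factors. Sostdc1, a secreted antagonist of bone morphogenetic proteins, differed by 1.44 ± 0.62. The bicarbonate cotransporter Slc4a5 differed by 1.19 ± 0.53 and the potassium channel subunit Kcne2 by 1.03 ± 0.47 (SE each). The growth factor Igf2 differed by 1.04 ± 0.47, the short-chain collagen Col8a1 by 1.01 ± 0.41, the glucose transporter Slc2a12 by 0.93 ± 0.43 and the leptin receptor Lepr by 0.90 ± 0.41. Igf2 and Lepr did not go with the plexus genes alone. In WT con replicate 3, where the listed plexus genes averaged −0.31 and the fibroblast genes 1.04, Igf2 was at 10.09 and Lepr at 7.41. The other WT con arrays were at 8.02 to 8.46 and at 5.38 to 5.96. Which cells gave their signal was not tested. Of 24 plexus genes taken from the study's own lists and matched by symbol, which it drew from these arrays, all 24 had a higher mean in KO stress, 13 met the criterion, and KO stress replicate 2 was highest for all 24. Over all probe sets 0.139% met the criterion, and KO stress replicate 2 was highest of the KO arrays for 7.34%. The list of 24 is no independent evidence of its direction, because it was chosen on these mice. Its median difference was 1.02, against −0.0016 over all probe sets, of which 48.6% were positive, and the median was 0.72 without KO stress replicate 2.

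Plexus genes outside those lists were shifted less. Of 27 measured, 26 had a higher mean in KO stress, and the median difference was 0.37 (0.22 without KO stress replicate 2). An unadjusted limma p under 0.05 was found for 0 of the 27, and for 1.13% of all probe sets. Ecrg4, a secreted peptide precursor, differed by 1.04 ± 0.50, the folate receptor Folr1 by 0.88 ± 0.46, the metalloreductase Steap1 by 0.86 ± 0.49 and the tight junction protein Cldn1 by 0.85 ± 0.47 (SE each). As the average of the 27 genes, each taken relative to its own 20-array mean, KO stress replicates 1 to 5 were at 0.17, 0.76, −0.17, 0.27 and −0.01, against −0.29, −0.24, −0.16, −0.10 and −0.16 in KO con. The rank of the mice was the same as for the listed genes, with replicate 2 highest and replicate 3 at control level. In bulk tissue a larger share of cells of a type and more RNA per cell cannot be told apart.

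The windows around the annotated starts of Kcnj13 and Ace, 250 bases before to 50 after, are shown because both genes were among the choroid plexus genes above and these windows hold TATA boxes. Ace has 2 windows in the table, and the other (chr11:105974939-105975238) holds none of the motifs searched. They come from RefSeq (GRCm38.p6), and capitals mark TATAAA and, in Ace, TAATCC, letters bound by homeodomain factors of the OTX type, on either strand.
Kcnj13 (chr1:87394680-87394979, minus strand): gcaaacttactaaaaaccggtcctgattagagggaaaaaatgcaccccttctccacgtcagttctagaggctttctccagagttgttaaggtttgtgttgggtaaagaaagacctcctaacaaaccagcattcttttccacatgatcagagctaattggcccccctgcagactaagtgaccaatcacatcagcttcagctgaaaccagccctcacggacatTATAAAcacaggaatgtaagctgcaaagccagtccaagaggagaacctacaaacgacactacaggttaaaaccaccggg
Ace (chr11:105967698-105967997, plus strand): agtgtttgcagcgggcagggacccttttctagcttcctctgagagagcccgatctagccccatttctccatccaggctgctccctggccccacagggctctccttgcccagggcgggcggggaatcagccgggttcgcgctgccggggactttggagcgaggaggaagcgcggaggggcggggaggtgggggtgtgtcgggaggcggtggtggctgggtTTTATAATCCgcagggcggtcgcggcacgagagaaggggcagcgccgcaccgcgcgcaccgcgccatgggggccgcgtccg
In Kcnj13 the TATA box takes bases 222 to 227 of the window, and in Ace its reverse complement takes bases 220 to 225 and overlaps TAATCC at bases 224 to 229. The 28 genes meeting the criterion that have a window have 36 windows. TATAAA was present in 4 of these 36 (Ace, Anxa1, Kcnj13 and Slc4a5), and in 13.6% of the 32851 windows of the reference. TAATCC was present in 2 of the 36 (Ace and Igf2), and in 7.06% of all windows.

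Genes of ependymal cilia had higher KO stress means throughout, none of which met the criterion. Of 33 measured, 33 differed upward, by 0.10 to 0.78 with a median of 0.40, and 2 had an unadjusted p under 0.05 (Efhb and Stoml3, at 0.57 and 0.56). Over all probe sets 48.6% differed upward and 1.13% had such a p. Some of the list, Stoml3 and Rsph4a among them, had been selected by the study from these arrays. Ak7, an adenylate kinase of the axoneme, was at 8.24, 7.75, 7.25, 8.35 and 8.31 in KO stress, against 5.79, 6.47, 7.88, 8.32 and 7.53 in KO con. The difference of 0.78 ± 0.48 (SE; limma p = 0.121, exact permutation p = 0.183) went with a split among controls, of which replicates 1 and 2 were low and replicates 3 and 4 reached the stressed arrays. The dynein heavy chain Dnah6 and the radial spoke protein Rsph4a differed by 0.78 ± 0.53 and 0.62 ± 0.34 (SE), with the same 2 controls lowest. Averaged over the 33 genes, KO stress arrays were at 0.32, 0.19, −0.01, 0.56 and 0.46, against −0.72, −0.38, 0.22, 0.47 and −0.02 in KO con. Unlike in the choroid plexus lists, KO stress replicate 2 was highest for none of the 33 genes, and the median was 0.24 without KO con replicate 1.

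Genes of fibroblasts in the meninges formed the other large group. Of 36 measured, 35 had a higher mean in KO stress, 14 had an unadjusted p under 0.05 and 13 met the criterion. Over all probe sets these shares were 48.6%, 1.13% and 0.139%. The median difference was 0.65 (0.43 without KO stress replicate 2). Of the 13, Slc13a4, Prelp, Dab2, Mxra8 and Col1a2 had also been selected by the study in this contrast. Prg4, Efemp1 and Foxd1 had been selected in its comparison of stressed KO and WT mice. The list is therefore not independent of the study's selection. Mxra8, a cell surface protein of the limitrin type, was at 7.70, 8.18, 7.47, 7.93 and 7.67 in KO stress, against 6.92, 6.95, 7.38, 7.43 and 7.24 in KO con. The groups did not overlap (difference 0.60 ± 0.20, SE; limma p = 0.007, exact permutation p = 0.00794). Lum, the proteoglycan lumican, was at 5.68, 7.80, 5.51, 6.73 and 6.10 in KO stress, against 5.61, 5.02, 5.53, 5.55 and 5.49 in KO con. Replicates 2 and 4 carried most of the difference of 0.92 ± 0.36 (SE; limma p = 0.0195, exact permutation p = 0.0317), with replicate 3 inside the control range.

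Prg4, the lubricating proteoglycan 4, was at 5.86, 8.30, 7.25, 7.67 and 5.38 in KO stress, against 6.74, 4.74, 5.16, 5.48 and 5.99 in KO con. Its groups overlapped widely, with 3 stressed arrays above all controls (difference 1.27 ± 0.52, SE; limma p = 0.0247, exact permutation p = 0.0952). Slc13a4, a sulfate transporter of fibroblasts and plexus, differed by 1.25 ± 0.55. Pcolce, which enhances procollagen processing, differed by 0.95 ± 0.43, the gap junction protein Gjb2 by 0.87 ± 0.40 and the complement C1 inhibitor Serping1 by 0.86 ± 0.40 (SE each). Prelp, Islr, Foxd1, Efemp1, Dab2 and Col1a2 differed by 0.75, 0.71, 0.68, 0.68, 0.66 and 0.59. Ogn and Aldh1a2, the retinoic acid synthesizing enzyme of the meninges, had differences of 1.08 ± 0.56 and 0.97 ± 0.50 (SE), without meeting the criterion.

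The order of the stressed mice was not that of the choroid plexus genes. Averaged over the 36 fibroblast genes, KO stress replicates 1 to 5 were at −0.17, 1.35, 0.20, 0.78 and −0.11, against 0.05, −0.52, −0.34, −0.29 and −0.06 in KO con. Replicates 2 and 4 were high in both groups of genes, whereas replicate 1, which had high choroid plexus values, was within the control range for fibroblast genes. Genes of the vessel wall had small differences of the same sign. Endothelial genes had a median of 0.12 with 16 of 18 positive, and genes of pericytes and smooth muscle a median of 0.24 with 10 of 11 positive. Without KO stress replicate 2 these medians were 0.027 and 0.074. Among the 11 genes of pericytes and smooth muscle, Anpep, aminopeptidase N, alone met the criterion (0.65 ± 0.29, SE; exact permutation p = 0.143), against 0.139% of all probe sets.

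**Figure D3:**
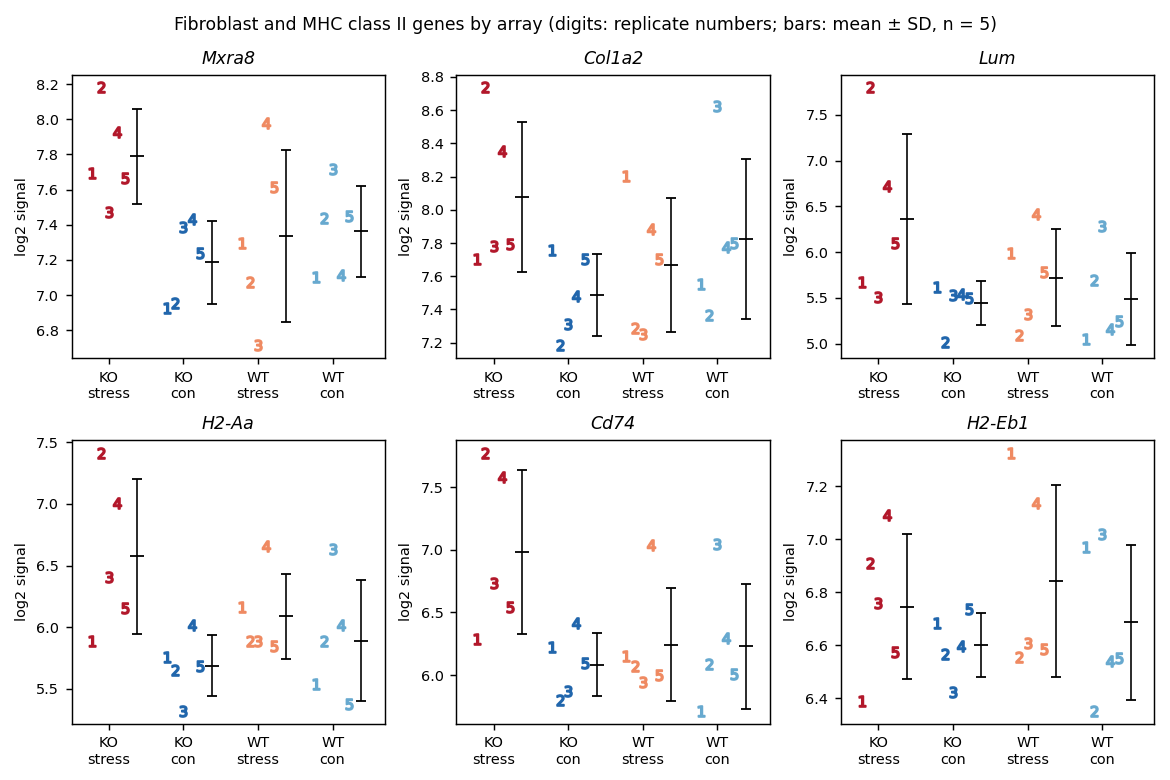
Log2 signal (vertical axis) of 3 fibroblast genes and 3 MHC class II genes in the 5 arrays of each group; digits are replicate numbers, and bars show the mean ± SD. Mxra8 separates the KO groups completely, H2-Aa and Cd74 do so except for KO stress replicate 1, and H2-Eb1 differed by 0.14.

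MHC class II molecules present peptides to CD4+ T cells, and the H2-Aa and H2-Ab1 chains assemble with the invariant chain Cd74. These were the 3 of 9 measured class II genes that met the criterion, which 0.139% of all probe sets met. H2-Aa and Cd74 had also been selected by the study from these arrays. H2-Aa had the smallest limma p of all 40 probe sets. It was at 5.89, 7.42, 6.41, 7.01 and 6.16 in KO stress, against 5.76, 5.66, 5.32, 6.02 and 5.69 in KO con. Replicate 1 was within the control range and the other 4 stressed arrays were above it (difference 0.89 ± 0.27, SE; limma p = 0.00407, exact permutation p = 0.0159). Cd74 was at 6.29, 7.78, 6.74, 7.58 and 6.54 in KO stress, against 6.22, 5.80, 5.87, 6.42 and 6.09 in KO con. The same replicate was the exception, and the difference was 0.90 ± 0.29 (SE; limma p = 0.00605, exact permutation p = 0.0159). H2-Ab1 was at 5.84, 7.60, 5.98, 6.64 and 6.17 in KO stress, against 5.92, 5.76, 5.43, 5.99 and 5.82 in KO con, with 3 stressed arrays above all controls (difference 0.66 ± 0.29, SE; limma p = 0.0338, exact permutation p = 0.0397).

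The other 6 class II genes had differences between −0.06 and 0.14. H2-Eb1, a further beta chain, was at 6.39, 6.91, 6.76, 7.09 and 6.58 in KO stress, against 6.68, 6.57, 6.42, 6.60 and 6.74 in KO con, and its groups overlapped (difference 0.14 ± 0.17, SE; limma p = 0.398, exact permutation p = 0.317). The transactivator Ciita differed by −0.01 and the peptide-exchange chain H2-DMa by 0.12. Levels of cells that can carry these molecules are given beside them, and their part in the result was not tested. Of 14 microglial genes 1 was positive, with a median of −0.05 (−0.10 to −0.01 with single KO arrays left out), and their summed level, as the mean over the list, lay between 7.42 and 7.64 in KO stress and between 7.58 and 7.89 in KO con. Border macrophage genes were all positive (9 of 9), with a median of 0.17 (0.078 without KO stress replicate 2). Of these 9 genes 0 had an unadjusted p under 0.05, against 1.13% of all probe sets. Their mean level lay between 5.65 and 6.27 in KO stress and between 5.60 and 5.87 in KO con. The mannose receptor Mrc1 differed by 0.39 ± 0.24 and the chemokine Pf4 by 0.32 ± 0.15 (SE).

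Class II genes share upstream boxes, of which the Y box, an inverted CCAAT motif bound by NF-Y, was searched as CTGATTGG on both strands, and GTTGCC, a part of the letters bound by RFX factors, likewise. The windows of H2-Aa, which met the criterion, and of H2-Eb1 and H2-Oa, which did not, are given for comparison (RefSeq, GRCm38.p6). Capitals mark the Y box and, in H2-Aa, also GGCAAC, the reverse complement of GTTGCC.
H2-Aa (chr17:34287774-34288073, minus strand): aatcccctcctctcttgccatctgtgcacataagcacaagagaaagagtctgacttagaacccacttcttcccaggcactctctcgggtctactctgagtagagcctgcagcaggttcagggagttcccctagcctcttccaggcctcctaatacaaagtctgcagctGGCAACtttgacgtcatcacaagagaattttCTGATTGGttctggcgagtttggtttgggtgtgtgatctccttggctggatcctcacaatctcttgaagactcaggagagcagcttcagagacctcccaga
H2-Eb1 (chr17:34305617-34305916, plus strand): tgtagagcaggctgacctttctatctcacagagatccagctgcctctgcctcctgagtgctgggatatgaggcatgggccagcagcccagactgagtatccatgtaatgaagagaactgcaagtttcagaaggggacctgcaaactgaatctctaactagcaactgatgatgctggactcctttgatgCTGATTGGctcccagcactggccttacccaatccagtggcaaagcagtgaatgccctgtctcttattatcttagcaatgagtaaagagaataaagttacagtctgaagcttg
H2-Oa (chr17:34092129-34092428, plus strand): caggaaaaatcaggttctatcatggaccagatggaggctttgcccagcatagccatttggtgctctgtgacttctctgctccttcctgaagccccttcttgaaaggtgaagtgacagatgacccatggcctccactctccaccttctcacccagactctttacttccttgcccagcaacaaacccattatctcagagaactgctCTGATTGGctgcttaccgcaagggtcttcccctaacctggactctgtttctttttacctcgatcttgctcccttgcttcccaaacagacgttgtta
The Y box takes bases 200 to 207 of the window of H2-Aa, 189 to 196 of H2-Eb1 and 205 to 212 of H2-Oa, so that it was present in a gene that met the criterion and in 2 that did not. CTGATTGG was found in 4.1% of all windows, and in 2 of the 36 windows of the 28 genes meeting the criterion that have one (H2-Aa and Gpr50). GTTGCC was found in 12.5% of all windows and in 3 of these 36 (H2-Aa, Kcne2 and Wfikkn2).

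Further genes that met the criterion are in none of the choroid plexus, cilia, fibroblast and class II lists used here, although the study's annotation placed Anxa1 and Cd24a under cilium. Anxa1, the glucocorticoid-inducible annexin A1, was at 6.47, 7.83, 6.45, 7.24 and 6.79 in KO stress, against 6.45, 5.55, 6.04, 5.85 and 6.47 in KO con. Replicates 1 and 3 were level with the highest controls, and the difference was 0.88 ± 0.35 (SE; limma p = 0.0203, exact permutation p = 0.0238). Cd24a, a glycosylated surface antigen, was at 8.69, 8.26, 8.23, 8.76 and 8.61 in KO stress, against 6.91, 7.44, 8.27, 8.53 and 7.67 in KO con. Its stressed arrays were close together, and the spread lay in the controls, with replicates 1 and 2 lowest, as for cilia genes, and replicates 3 and 4 as high as stressed mice (difference 0.75 ± 0.28, SE; limma p = 0.0153, exact permutation p = 0.0476). Gpr50, an orphan relative of the melatonin receptors known from tanycytes of the hypothalamus, was at 8.51, 6.47, 8.16, 7.48 and 7.37 in KO stress, against 6.09, 7.25, 6.57, 7.02 and 6.27 in KO con. Here KO stress replicate 2 was the lowest stressed array and replicates 1 and 3 the highest (difference 0.96 ± 0.45, SE; limma p = 0.0469, exact permutation p = 0.0476). The list of hypothalamic and medial amygdala genes was highest in the same 2 arrays, and its part in this difference was not tested. Of the other 4 tanycyte genes measured, the differences lay between −0.18 and 0.05.

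The matricellular protein Thbs1 differed by 0.64 ± 0.28, the secreted protease inhibitor Wfikkn2 by 0.64 ± 0.26, the collagen-binding protein Aebp1 by 0.72 ± 0.34 and AI506816 by 0.61 ± 0.26 (SE each). Probe set 10428619, Enpp2 in the study's table, encodes autotaxin, the secreted enzyme that makes lysophosphatidic acid, and was at 12.22, 12.77, 10.65, 12.14 and 11.83 in KO stress, against 10.99, 10.76, 11.16, 11.06 and 10.95 in KO con. Replicate 3 was below all controls and the other 4 were above all controls (difference 0.94 ± 0.37, SE; exact permutation p = 0.0476). Probe set 10452316, which has no gene symbol, differed by 0.72 ± 0.28 (SE; exact permutation p = 0.0714).

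Parts of 3 hormone systems overlapped with these groups. Of 14 genes of the insulin-like growth factor axis, 13 were positive, with a median of 0.25 (0.15 without KO stress replicate 2) and Igf2 alone past the criterion. Over all probe sets 48.6% were positive and 0.139% met the criterion. The binding proteins Igfbp2, Igfbp3 and Igfbp6 differed by 1.05 ± 0.52, 0.42 ± 0.23 and 0.41 ± 0.27 (SE each), whereas the receptors Igf1r and Igf2r differed by 0.03 and 0.07. Of 8 genes of the renin-angiotensin system, Ace and Anpep met the criterion, against 0.139% of all probe sets. The angiotensin receptor Agtr1a was at 6.65, 6.55, 6.79, 6.58 and 7.08 in KO stress, against 6.11, 6.53, 6.19, 6.73 and 6.17 in KO con. It had a small difference of 0.39 ± 0.12 (SE; limma p = 0.00511, exact permutation p = 0.0556), below a fold of 1.5, and control replicate 4 was above 3 of the 5 stressed arrays. Angiotensinogen itself, Agt, differed by 0.11 ± 0.49. Of 16 retinoid genes 11 were positive, and apart from Ttr and Aldh1a2 the retinol dehydrogenase Rdh5 and the retinol-binding protein receptor Stra6 differed by 0.66 ± 0.34 and 0.39 ± 0.30 (SE).

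Genes with lower KO stress values included several of fast-firing neurons. Pvalb, the calcium buffer parvalbumin of fast-spiking interneurons, was the probe set with a lower mean that met the criterion, and had been selected by the study from these arrays in its comparison of stressed KO and WT mice. It was at 6.48, 6.60, 7.05, 6.31 and 6.54 in KO stress, against 8.12, 7.13, 8.67, 6.67 and 6.31 in KO con. The stressed arrays were alike, and control replicates 1 and 3 stood above all others (difference −0.78 ± 0.37, SE; limma p = 0.0496, exact permutation p = 0.151). The call was lost in 21 of 32 alternative settings. Kcnc2, a potassium channel (Kv3.2) that allows rapid repolarization, had been selected by the study in this contrast of KO stress with KO con. It was at 9.26, 8.95, 9.57, 8.83 and 9.28 in KO stress, against 9.71, 9.63, 10.55, 9.40 and 9.70 in KO con. Of the 5 stressed arrays, 4 were below all controls, at a difference of −0.62 ± 0.33 (SE; limma p = 0.0745, exact permutation p = 0.0159).

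Scn1a, the sodium channel Nav1.1, was at 9.33, 8.82, 9.28, 8.51 and 9.24 in KO stress, against 9.81, 9.58, 9.79, 9.09 and 9.48 in KO con. The difference was −0.51 ± 0.22 (SE; limma p = 0.034, exact permutation p = 0.0476), below a fold of 1.5, and control replicate 4 lay within the stressed range. Of the 10 genes of the fast-spiking list that were measured, 10 had a negative difference, with a median of −0.31, and 2 had an unadjusted p under 0.05. Over all probe sets 48.6% had a positive difference and 1.13% had such a p. With Pvalb and Kcnc2 in it, the fast-spiking list is not independent of the study's selection. The median lay between −0.43 and −0.26 when single KO arrays were left out. Averaged over the list, KO stress arrays were at −0.10, −0.23, 0.12, −0.37 and −0.22, against 0.29, 0.27, 0.62, −0.02 and −0.15 in KO con. The synaptic vesicle protein Syt2 differed by −0.46 ± 0.34 (SE). Of general markers of GABAergic neurons 7 of 19 were positive, with a median of −0.03, and Dlx1 and Dlx2 differed by 0.61 ± 0.36 and 0.44 ± 0.23 (SE).

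**Figure D4:**
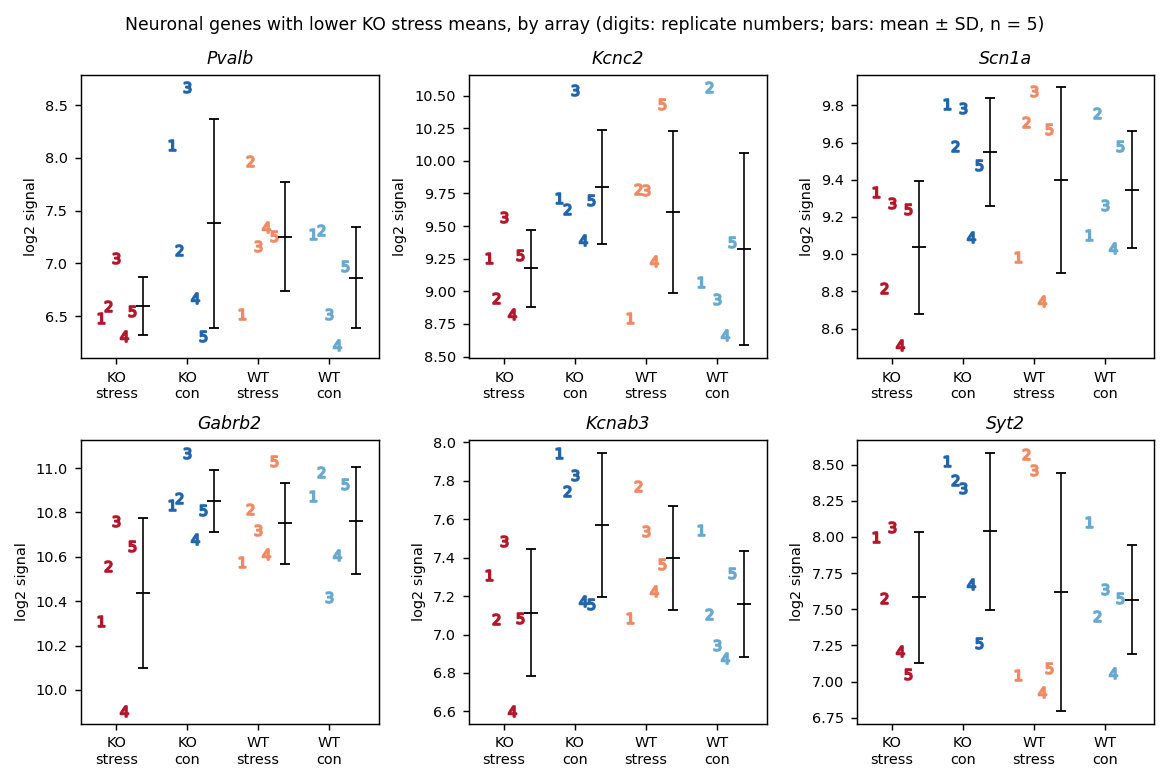
Log2 signal (vertical axis) of 6 neuronal genes in the 5 arrays of each group; digits are replicate numbers, and bars show the mean ± SD. KO con replicates 1 and 3 are the highest KO arrays for Pvalb, and for Kcnc2 and Gabrb2 4 of 5 KO stress arrays lie below all KO con arrays.

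Among 88 probe sets with lower values and an unadjusted p under 0.05, the 2 of Gabrb2, the beta2 subunit of the GABA-A receptor, gave like results. Probe set 10375245 was at 10.31, 10.56, 10.76, 9.91 and 10.65 in KO stress, against 10.83, 10.87, 11.07, 10.68 and 10.81 in KO con (difference −0.42 ± 0.14, SE; limma p = 0.01, exact permutation p = 0.0159). Probe set 10375261 differed by −0.46 ± 0.21 (SE; exact permutation p = 0.0238), and in both 4 of 5 stressed arrays were below all controls. Kcnab3, a potassium channel beta subunit, differed by −0.46 ± 0.19, the glutathione transferase Mgst3 by −0.41 ± 0.18, the calcium release channel partner Fkbp1b by −0.35 ± 0.13 and the phosphatase Inpp5j by −0.34 ± 0.14 (SE each). Rpe65, the retinoid isomerohydrolase of the eye, differed by −0.54 ± 0.25 with control replicate 1 far above the others. In 2410018L13Rik all 5 stressed arrays lay below all controls (difference −0.38 ± 0.16, SE; exact permutation p = 0.00794), as was the case for 0.0939% of all probe sets.

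Pathways that respond to stress within minutes to hours showed small differences. Of 35 immediate early genes 27 were positive, 0 had an unadjusted p under 0.05, and the median was 0.07 (0.0013 without KO stress replicate 4). Sik1, a salt-inducible kinase, was at 8.71, 9.02, 8.68, 9.36 and 9.17 in KO stress, against 7.91, 8.58, 8.76, 9.24 and 8.46 in KO con, and its groups overlapped (difference 0.40 ± 0.23, SE; exact permutation p = 0.151). Arc, Egr4 and Ccn1 differed by 0.29 ± 0.24, 0.33 ± 0.19 and 0.32 ± 0.16 (SE), and Fos by 0.27. For Sik1, Arc, Egr4 and Ccn1, KO stress replicate 4 was the highest KO array. Of 17 glucocorticoid-responsive genes 13 were positive, with a median of 0.04 (0.02 to 0.10 with single KO arrays left out), and the chaperone Fkbp5 differed by 0.05. Heat shock and cold-inducible genes had a median of −0.02, with 5 of 14 positive. An unadjusted p under 0.05 was found for 0 genes of these 3 lists, and for 1.13% of all probe sets. At that share lists of this size hold few genes or none, so that nothing was read from the 0.

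Genes of the serotonin system had a median of 0.01 with 13 of 22 positive. Slc18a2, the vesicular monoamine transporter, differed by 0.46 ± 0.31 (SE), and Tph2, which makes serotonin in raphe neurons, by 0.23 ± 0.15 through replicate 5 alone, at 6.25 among stressed arrays of 5.13 to 5.25. Stress and anxiety peptides with their receptors had a median of −0.05 with 11 of 30 positive. Adcyap1, which encodes the peptide PACAP, was at 7.79, 5.99, 7.97, 7.56 and 6.83 in KO stress, against 6.78, 6.73, 6.66, 6.73 and 6.68 in KO con. The 5 controls were nearly equal, and the stressed arrays lay on both sides of them (difference 0.51 ± 0.36, SE; limma p = 0.172, exact permutation p = 0.127). Of the genes used for real-time PCR, the axon guidance receptor Robo2 and the cadherin Cdh9 differed by −0.27 ± 0.29 and −0.25 ± 0.26 (SE).

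**Figure D5:**
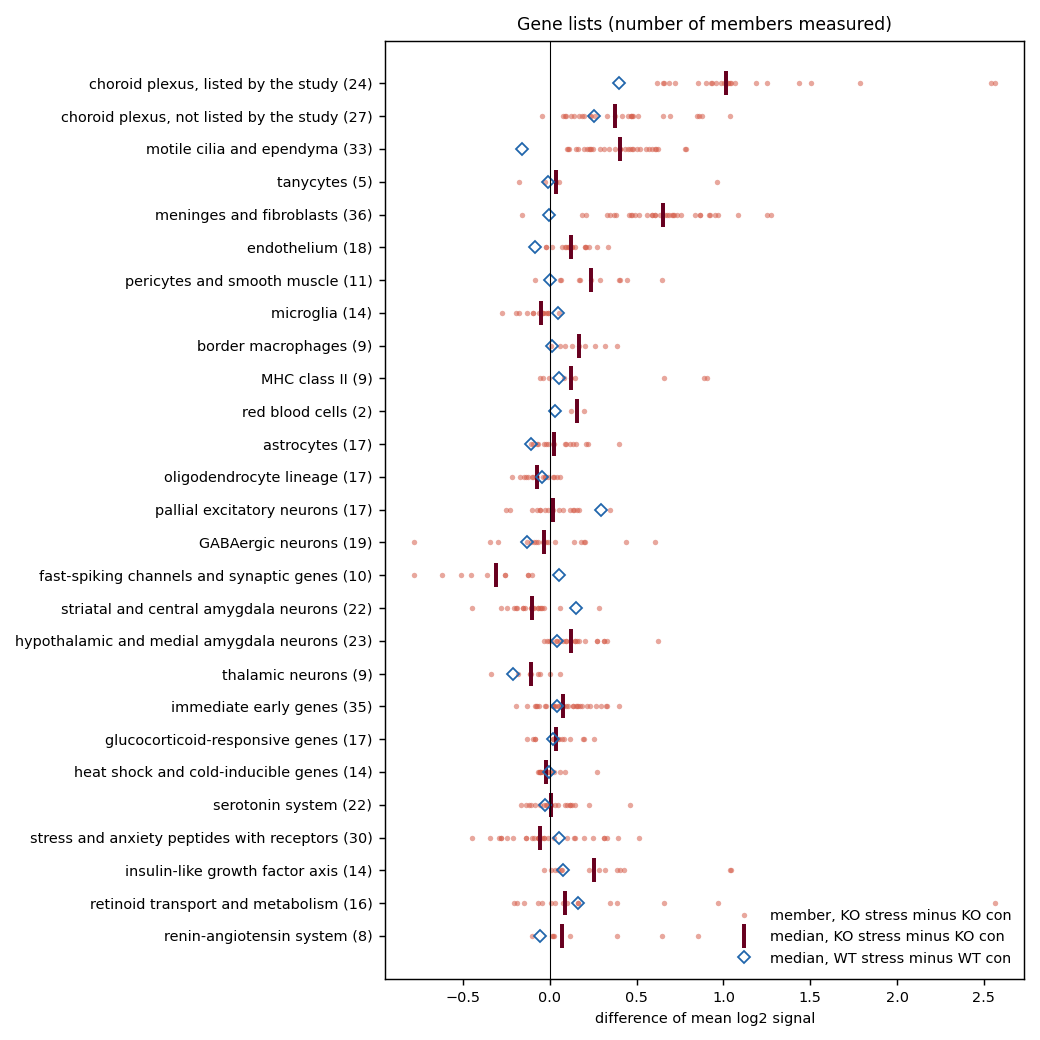
Difference of mean log2 signal (horizontal axis) for the measured members of 27 gene lists; points and bars are members and medians of KO stress minus KO con, and diamonds are medians of WT stress minus WT con. The 2 choroid plexus lists, cilia and fibroblasts lie to the right in KO mice, and the fast-spiking genes to the left.

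Lists of neighbouring brain regions and other cells varied by mouse. Hypothalamic and medial amygdala genes had a median of 0.12 with 20 of 23 positive, and KO stress replicates 1 and 3 carried it, at 0.73 and 0.57 against −0.28, −0.12 and −0.30 in the other stressed arrays and −0.17 to 0.07 in KO con. Pmch, melanin-concentrating hormone, reached 7.64 and 9.13 in these 2 arrays, and 5.21 to 5.70 in the other stressed arrays, against 5.18 to 7.84 in KO con. The median was 0.01 without replicate 1 and 0.05 without replicate 3. Striatal and central amygdala genes had a median of −0.11 with 2 of 22 positive, and thalamic genes −0.11 with 2 of 9 positive. The striatal median was 0.01 without KO stress replicate 5 and −0.25 without KO con replicate 3, and the thalamic median was 0.14 without KO con replicate 3 and −0.24 without KO con replicate 2. Of the 27 lists, 9 had a median that changed sign when a single KO array was left out. Besides these, they were tanycytes, the oligodendrocyte lineage, pallial excitatory neurons, GABAergic neurons, heat shock and cold-inducible genes, the serotonin system and stress peptides, all with medians between −0.07 and 0.03. Thalamic genes ranged from −0.38 to 0.60 in KO stress and from −0.47 to 0.97 in KO con. Pallial excitatory neurons, astrocytes and the oligodendrocyte lineage had medians of 0.02, 0.03 and −0.07. An unadjusted p under 0.05 was found for 0 genes of these lists (17 measured in each), and for 1.13% of all probe sets.

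The same contrast in WT mice set these values in relation. Of the 40 probe sets, 0 met the criterion in WT mice, where 69 others did (0.24% of all), and 24 of the 39 with higher KO stress means were positive in WT mice as well. Their median difference was 0.89 in KO mice and 0.20 in WT mice. A test of the KO difference against the WT difference gave an adjusted p under 0.05 for 0 probe sets and an unadjusted p under 0.05 for 724 (2.52%), of which 6 were among the 40. These 40 had been picked on the KO difference, which is a part of this test and of the medians above. Nothing about the genotypes was therefore read from the 6, from those medians or from the single genes given next. For Kcnj13, the difference was 2.54 in KO mice and 0.28 in WT mice, and the KO effect minus the WT effect was 2.26 ± 1.23 (SE). For Cd74, the differences were 0.90 in KO mice and 0.01 in WT mice (0.89 ± 0.41, SE). For Pvalb, they were −0.78 and 0.39 (−1.17 ± 0.53, SE).

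The lists are set beside WT mice as values, without a test of the lists themselves. The listed choroid plexus genes had a median stress minus control difference of 1.02 in KO mice, against 0.40 in WT mice. Among WT arrays, WT stress replicate 4 was high, at 2.43 against −0.82 to 0.32 in the other WT stress arrays and −0.34 to −0.09 in WT con. Fibroblast genes had a median of 0.65 in KO mice, against 0.00 for WT, and here a control, WT con replicate 3, was highest at 1.04. Medians of cilia genes were 0.40 and −0.16, and those of fast-spiking genes −0.31 and 0.05. For 37 of the 39 probe sets the KO con mean was below the WT con mean, and the WT con mean exceeded it by a median of 0.20 over the 39. The 39 had been picked for a KO stress mean above the KO con mean, which favours low KO con means. Nothing was therefore read from this about the genotypes.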

How the data were processed

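Amygdala RNA of 20 mice was measured on Affymetrix whole-transcript gene arrays. Probe signals had been summarized by the authors (ArrayAssist, ExonRMA), followed by a variance stabilization, and were deposited as log2 values, which were used without further scaling. Small differences of low genes are compressed in such values, and 14.6% of the 28767 probe sets had a mean under 5. Gene symbols came from the platform's probe table (1 symbol for 21776 probe sets, several for 1618, none for 5373), and 21686 probe sets were matched to RefSeq of GRCm38.p6 by gene identifier. Promoter windows came from RefSeq as well.

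The main test was limma (version 3.58.1, R 4.3.3), with lmFit on 4 group means of all 20 arrays, eBayes (16 residual degrees of freedom, 2.10 prior) and Benjamini-Hochberg adjustment over 28767 probe sets. The criterion was a difference of mean log2 values over that of a 1.5-fold change with an unadjusted limma p under 0.05. Exact two-sided permutation tests of 5 arrays against 5 (252 splits, smallest p 0.00794) stand beside single genes. The fit was tested on simulated data. The number of arrays limits the precision. Each array is a separate mouse.

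Named genes were Slc6a4, the 25 genes with the smallest p among those meeting the criterion with higher values, those meeting it with lower values, the 10 lowest differences at an unadjusted p under 0.05, up to 4 members of each of 27 lists with the largest difference (of these the text names those it describes), and genes of the study's real-time PCR that were matched. Others named in the text were chosen after their values were seen. Of 510 list entries 478 were matched, each by its probe set with the highest mean. A list average is the mean of its members, each centred over the 20 arrays. The members and lists were chosen with earlier results of these data known. As alternatives, the t-test of the methods, Welch's variant of it, other normalizations, filters, fits and covariates were tried, and each array was left out. Figures were drawn with matplotlib 3.10.9.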

Additional observations from a re-analysis of the deposited data

Results flagged for a closer look

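Within groups of 5, the highest or lowest array stood apart from the nearest other by more than 0.71 of the range in 15 of 254 groups examined (KO stress and KO con for 127 probe sets), where chance alone gives about 1 in 20, or 12.7. Above the other KO con arrays stood Kl in replicate 5 (7.10, next 6.69), Fcrls, Mef2c and Neurod2 in replicate 1 (7.64, 10.47 and 7.58), Kcnc2 in replicate 3 (10.55), and Gal and Hmox1 in replicate 2 (6.74 and 6.85). Below the other KO con arrays stood Lum in replicate 2 (5.02) and Sostdc1 in replicate 1 (6.29). Above the other KO stress arrays stood Cldn1 in replicate 2 (8.36, next 6.56), C1qa and Tph2 in replicate 5 (8.24 and 6.25) and Zbtb16 in replicate 4 (8.71). Below the other KO stress arrays stood 2410018L13Rik in replicate 4 (4.97) and Penk in replicate 5 (10.27, next 11.42).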

How the results depend on the processing

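The count of probe sets at an adjusted p under 0.05 was 0 in every alternative, for the KO contrast and for the KO minus WT effect. Unadjusted p-values under 0.05 numbered 326 and 724 by limma in the fit reported, both below a share of 0.05 of all probe sets. The 40 probe sets that met the criterion became 27 by the Welch test, 31 after quantile normalization, 35 after centring on array medians, 43 by the methods' t-test (0 after adjustment; 25 shared with the 40), 56 with limma on KO arrays alone, 90 with array weights (90 higher, 37 shared) and 8 with the score of unlisted choroid plexus genes as covariate (5 shared). Leaving out 1 array gave 11 to 82. Without WT stress replicate 1 and WT con replicate 1, an alternative chosen after the data were seen, it was 32. Of the named genes that met the criterion, 27 were followed across settings, and Ttr, Gpr50 and Anpep were not. Others in the text that met it were not followed either: Kcne2, Slc2a12, Lepr, Gjb2, Serping1, Islr, Foxd1, Aebp1 and probe sets 10428619 and 10452316. Of the 27, 23 no longer met it with the choroid plexus score as covariate. The number was 22 without KO stress replicate 2, 16 without replicate 4 and 15 without KO con replicate 2. H2-Aa and Kcnj13 met it in all 32 settings (0.62 to 1.06 and 1.11 to 3.04). None of the 27 changed sign in any setting. Robo2 lay between −0.45 and 0.034 with single arrays left out, and its sign turned without KO con replicate 1. Replicate numbers did not pair the KO arrays: deviations of same-numbered arrays correlated at −0.03 to 0.26, and 2 of 5 KO stress arrays correlated best with their own number. With the replicate block 45 probe sets met the criterion (39 higher, 6 lower, 22 shared).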
